A study of Caenorhabditis elegans with 2 samples.

Results

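The gld, fog and cpb genes of Caenorhabditis elegans encode RNA regulators that decide whether a germ cell divides or enters meiosis, and whether it becomes a sperm or an oocyte. The 9 genes described here were chosen by name: gld-1, gld-2, gld-3, gld-4, rnp-8, fog-1, fog-3, cpb-1 and cpb-3, all matched among the 19973 protein-coding genes of the annotation. Chromatin immunoprecipitation with an anti-GFP antibody, followed by sequencing (ChIP-seq), gave the sites of LIN-54 at their promoters in 2 biological replicates, which form 1 group. Per the labels, both replicates were whole young adults of mixed sex, 65 hours of age, grown from L1 larvae starved after bleaching. They belonged to strain OP743, with the mutation unc-119(tm4063) and the insertion wgIs743, a lin-54 fosmid tagged with TY1, EGFP and 3xFLAG that also carries unc-119(+). The labels name no mutation of the animals' own lin-54. Untagged animals, a group without LIN-54 and the control reads were not analysed here, so every comparison is between genes within the same lists. Because whole animals were pooled, the tissue in which LIN-54 lay at a site cannot be read from these data, nor can binding in few cells and weak binding in many cells be told apart.

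LIN-54 is a DNA-binding subunit of the DREAM complex, known for repressing cell cycle genes, and contacts an element named CHR (cell cycle genes homology region). The same complex holds the E2F protein EFL-1 and its partner DPL-1, which recognise the E2F site. In the germ line, GLD-1 blocks translation of its target mRNAs, while GLD-2 and GLD-4 lengthen poly(A) tails in the cytoplasm and so favour translation. GLD-2 has no RNA-binding domain of its own and works with GLD-3 or RNP-8. The cytoplasmic polyadenylation element binding (CPEB) proteins FOG-1, CPB-1 and CPB-3 bind mRNAs, and FOG-3, of the Tob family, acts with FOG-1 to specify sperm.

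LIN-54 sites were read from regions called on each replicate and on the pooled replicates. They were also read from the peaks that passed an irreproducible discovery rate (IDR) procedure, which is meant to keep regions ranked alike in both replicates. Here the IDR peaks were the 3449 strongest pooled regions. A region that did not pass was thus one with a lower pooled signal, whether or not its replicates were alike. Each region has a summit, its position of highest signal, and a signal value from the authors' peak caller that ranks regions within 1 list. A promoter window was the stretch between 1000 bp upstream and 300 bp downstream of any annotated 5′ end of a gene, and a gene was counted as bound when an IDR summit fell in it. The CHR element was searched on both strands as TTCGAA or as TTTGAA. The E2F site was searched on both strands as TTCCCGC. A match on either strand to the word TTCGCGC was also counted as an E2F site. The same held for a match on either strand to TTGCCGC, and for one to TTGGCGC, the word found at gld-2 and gld-3. TTCGAA reads the same on both strands and was counted once, and a CHR match and an E2F match may share bases but neither fits wholly inside the other.

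A pair of reference sequences shows the contrast within the set: the stretch around the summit of gld-3, the member with the strongest peak in the pooled list, and the stretch upstream of cpb-1, a member with no region in its window in any list. Both are given 5′ to 3′ on the plus strand of ce11, which is the strand of both genes. The gld-3 stretch covers chrII:7132238-7132438, that is 100 bases to either side of the summit. The cpb-1 stretch covers chrIII:9322010-9322309, the 300 bases before its 5′ end. Both are intergenic. Capitals mark matches to the CHR element or the E2F site.
gld-3: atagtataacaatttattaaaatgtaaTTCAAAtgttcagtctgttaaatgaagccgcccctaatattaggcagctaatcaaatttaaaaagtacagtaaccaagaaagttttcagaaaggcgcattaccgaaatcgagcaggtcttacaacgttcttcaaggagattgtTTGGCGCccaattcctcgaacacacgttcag
cpb-1: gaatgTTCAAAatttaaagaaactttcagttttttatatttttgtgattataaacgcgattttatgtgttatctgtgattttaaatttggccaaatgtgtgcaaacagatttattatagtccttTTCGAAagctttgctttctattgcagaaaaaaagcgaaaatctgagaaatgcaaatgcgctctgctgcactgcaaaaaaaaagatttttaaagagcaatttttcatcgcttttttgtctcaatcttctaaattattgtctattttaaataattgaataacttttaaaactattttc
In the gld-3 stretch, the capitals TTCAAA (chrII:7132265-7132270) are a CHR match read on the opposite strand, centred 70.5 bp upstream of the summit, and the capitals TTGGCGC (chrII:7132408-7132414) are an E2F match centred 73.0 bp downstream of it. The cpb-1 stretch has 2 CHR matches, TTCAAA at chrIII:9322015-9322020 and TTCGAA at chrIII:9322134-9322139, and no E2F match. The stretch without a region thus held 2 CHR matches and the shorter stretch at the gld-3 summit held 1.

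LIN-54 was bound at 4 of the 9 genes: gld-2, gld-3 and rnp-8, which encode a cytoplasmic poly(A) polymerase and its partners, and cpb-3, a CPEB gene. This share, 44.4%, stood beside 14.3% of the 19973 protein-coding genes (percent with a promoter IDR peak) and 2855 of the 19964 genes outside the set. The other 5 members, gld-1, gld-4, fog-1, fog-3 and cpb-1, were not bound by this rule. All 4 bound members also had one of the 1724 strongest IDR peaks, those with a signal of about 177 or more, against 8.90% of all genes. No test of the set was made.

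Regions of any strength, IDR peaks included, were also counted. A region of the pooled list lay in the window of 7 of the 9 members, against 38.0% of all genes. In replicate 1 a region was present at 6 members, against 40.1% of all genes, and in replicate 2 at 7, against 39.9%. Of the 7 members with a pooled region in the window 4 were bound, beside 37.7% of all genes with one. This last comparison was added after the first counts had been seen.

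The members are unevenly spread over the genome. Of the 9, 7 lie on chromosome I, where 3 were bound, and 23.1% of the 2878 genes of that chromosome were bound. The member on II, gld-3, was bound (14.6% of genes there), and the member on III, cpb-1, was not (23.9% of genes there). The background on the members' main chromosome was therefore higher than over the genome. The RefSeq gene model is marked as incomplete at the 5′ end for 4 members, gld-2, gld-3, gld-4 and fog-1, of which 2 were bound. Distances were measured from annotated 5′ ends of Ensembl, a separate source. For these 4 and for the other members, the distance to the true start of transcription may differ from the one given.

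**Figure D1:**
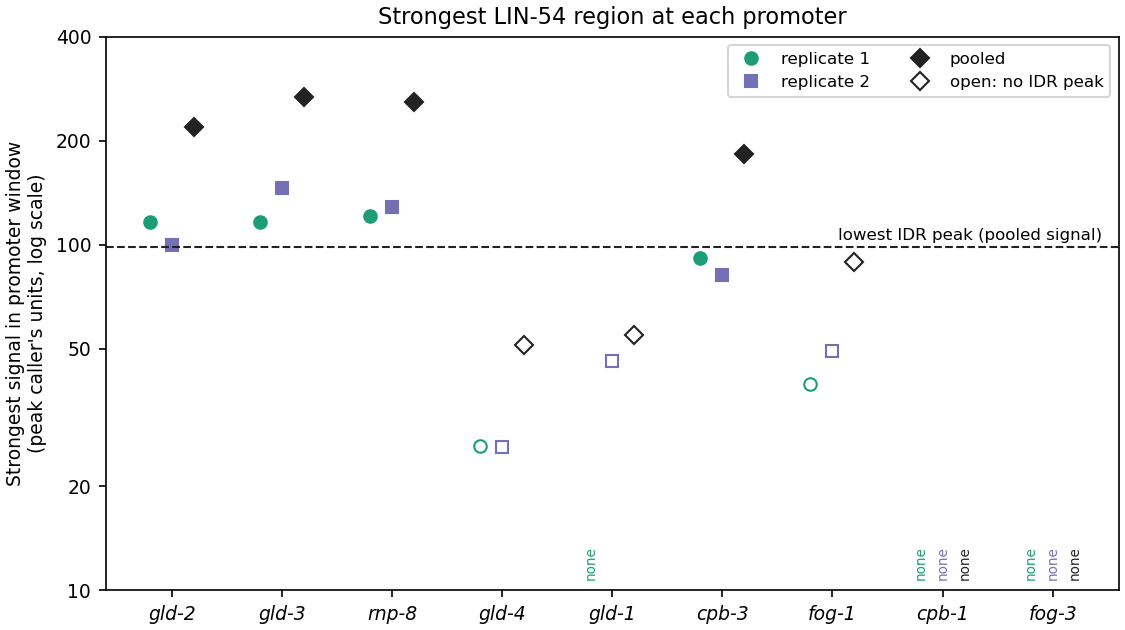
Strongest signal in the promoter window of each member (log axis, caller's units) in replicate 1 (circles), replicate 2 (squares) and the pooled list (diamonds), with filled symbols where the member had an IDR peak. The 4 bound members have pooled signals between 183.5 and 267.8, and fog-1 at 89.13 is the closest below the lowest IDR signal of 98.2, while cpb-1 and fog-3 have no region.

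Among the genes of the GLD-2 poly(A) polymerase, all 3 were bound at similar strength. At gld-2 (WBGene00001596, I, 6369748 to 6386194, plus strand), the catalytic subunit gene, the strongest region had a signal of 116.7 in replicate 1 and 99.57 in replicate 2. At gld-3 (WBGene00001597, II, 7132643 to 7137522, plus strand), which encodes a Bicaudal-C family protein that binds GLD-2, the signals were 116.1 in replicate 1 and 146.1 in replicate 2. At rnp-8 (WBGene00020091, I, 364510 to 368579, plus strand), which encodes the alternative RNA-binding partner of GLD-2, they were 121.5 in replicate 1 and 128.6 in replicate 2. The lists order these 3 genes differently: by rank, replicate 1 had rnp-8 (1149), gld-2 (1207) and gld-3 (1214) within a narrow span, and replicate 2 had gld-3 (906) before rnp-8 (1093) and gld-2 (1526). The place of gld-3 in this order therefore differed between replicates, while rnp-8 ranked before gld-2 in both. With 2 replicates, no difference in strength was tested.

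In the pooled list gld-3 had a signal of 267.8 (rank 1004 of 30000), rnp-8 259.3 (rank 1046) and gld-2 219.5 (rank 1300). Among the 7591 genes with a pooled region in the window, these signals stood at percentiles 84.7, 84.1 and 81.0, and among all protein-coding genes at percentiles 94.2, 94.0 and 92.8. The highest pooled signal in the genome was 7882.

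The 3 peaks differed in where they lay. The gld-3 peak (II, 7132267 to 7132456) was 190 bp wide, with its summit intergenic and 305 bp upstream of the 5′ end. It lay within the 610 bp between gld-3 and the divergent gene T07F8.4, an ELM2 domain protein gene per RefSeq, and in the windows of both, so the gene it serves cannot be read from its position. The rnp-8 peak (I, 364230 to 364384) was 155 bp wide, with its summit intergenic and 206 bp upstream of the outermost 5′ end. The gld-2 peak (I, 6369738 to 6370073) was 336 bp wide and lay across the outermost 5′ end, with its summit inside the gene, in an intron. The summit was 158 bp downstream of the outermost and 28 bp upstream of the nearest of the 6 annotated 5′ ends of gld-2. Of the 3, only the gld-3 peak lay in the window of another gene.

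Weaker regions accompanied these peaks. The rnp-8 window held a region at an inner 5′ end with a pooled signal of 67.61, present in replicate 1 at 37.66 and in replicate 2 at 30.02. The long gld-2 gene held 10 pooled summits, of which the IDR peak was the strongest, and the next region within its windows had a signal of 47.74. In gld-3, a pooled region of 75.88 lay 679 bp inside the gene, outside the promoter window. None of these weaker regions passed the IDR procedure.

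The gene of the GLD-4 poly(A) polymerase contrasted with those of GLD-2 and was not bound. At gld-4 (WBGene00014115, I, 9118115 to 9123181, plus strand), the catalytic subunit gene, the strongest window region had signals of 26.21 in replicate 1 and 25.9 in replicate 2. Its pooled signal was 51.18 (rank 9046, percentile 37.8), with the summit intergenic and 887 bp upstream of the 5′ end. A weaker region of 21.59, in the pooled list alone, lay 508 bp upstream. Inside the gene, 994 bp from the 5′ end, a pooled region of 54.94 was present in replicate 1 at 38.82, and the nearest regions of replicate 2 in the gene lay 1109 bp (14.64) and 2182 bp (21.07) from that end. The nearest IDR summit lay 4955 bp upstream of gld-4.

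The gene of the translational repressor GLD-1 had LIN-54 regions but no IDR peak. At gld-1 (WBGene00001595, I, 7695681 to 7698222, plus strand), replicate 1 had no region in the window and replicate 2 had one of 46.05 (rank 4167). The pooled signal was 54.85 (rank 8007, percentile 40.8), with the summit 354 bp upstream of the 5′ end. Just outside the window, a pooled region of 66.82 (rank 5806) lay 1050 bp upstream, stronger than the one in the window. It was in both replicates, 1044 bp upstream in replicate 1 (28.53) and 1012 bp upstream in replicate 2 (32.55). Replicate 1 also had a region 457 bp inside the gene (36.02). The strongest pooled region in the gene lay 962 bp inside it, with a signal of 79.2, and was in both replicates, at 45.07 in replicate 1 and 22.21 in replicate 2. Each replicate had a stronger region elsewhere in the gene. In replicate 1 it lay 2061 bp inside (47.19, rank 4171), and in replicate 2 it lay 765 bp inside (50.38, rank 3681). Regions that did not pass the IDR procedure were thus scattered over and around gld-1. No IDR peak lay at its 5′ end, and the nearest IDR summit was 5401 bp downstream of that end.

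The sperm fate genes fog-1 and fog-3 differed from each other, and neither was bound. At fog-1 (WBGene00001481, I, 3211046 to 3217267, plus strand), a CPEB gene, the strongest region had signals of 39.42 in replicate 1 and 49.28 in replicate 2 and a pooled signal of 89.13 (rank 3874, percentile 59.5). Its summit was intergenic, 587 bp upstream of the outermost of 4 annotated 5′ ends. This was the strongest of the 14 window regions of the members that did not pass the IDR procedure. By pooled signal it stood just under the limit. The lowest IDR peak had a signal of 98.2, the strongest region outside the list 98.1, and 424 regions ranked between the IDR list and fog-1. Its rank was 5584 in replicate 1 and 3796 in replicate 2, so in replicate 1 it lay farther from the strongest 3449 regions. At fog-3 (WBGene00001483, I, 10016765 to 10018121, plus strand), which encodes a Tob family protein, no window region was present in replicate 1, replicate 2 or the pooled list, and the nearest pooled summit was 10194 bp downstream of its 5′ end.

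The CPEB genes of the set ranged from no window region to an IDR peak. At cpb-3 (WBGene00000772, I, 5788634 to 5791752, minus strand), the signals were 91.27 in replicate 1 (rank 1682) and 81.48 in replicate 2 (rank 1997), and 183.5 in the pooled list (rank 1644, percentile 77.4). Its peak (I, 5791865 to 5792200) was 336 bp wide, with the summit intergenic and 281 bp upstream of the 5′ end, in the 568 bp that separate it from the upstream gene glh-3, a Vasa-related helicase gene on the same strand. It was the weakest of the 4 bound members in each list. At cpb-1 (WBGene00000770, III, 9322310 to 9324913, plus strand), known for its part in sperm formation, no window region was present in any list, and the nearest pooled summit lay 4446 bp upstream. Replicate 2 alone had a region 520 bp inside cpb-1, with a signal of 23.75. The remaining CPEB gene of the worm, cpb-2, had no window region in any list either, so 1 of the 4 CPEB genes was bound, 1 had weaker regions and 2 had none.

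**Figure D2:**
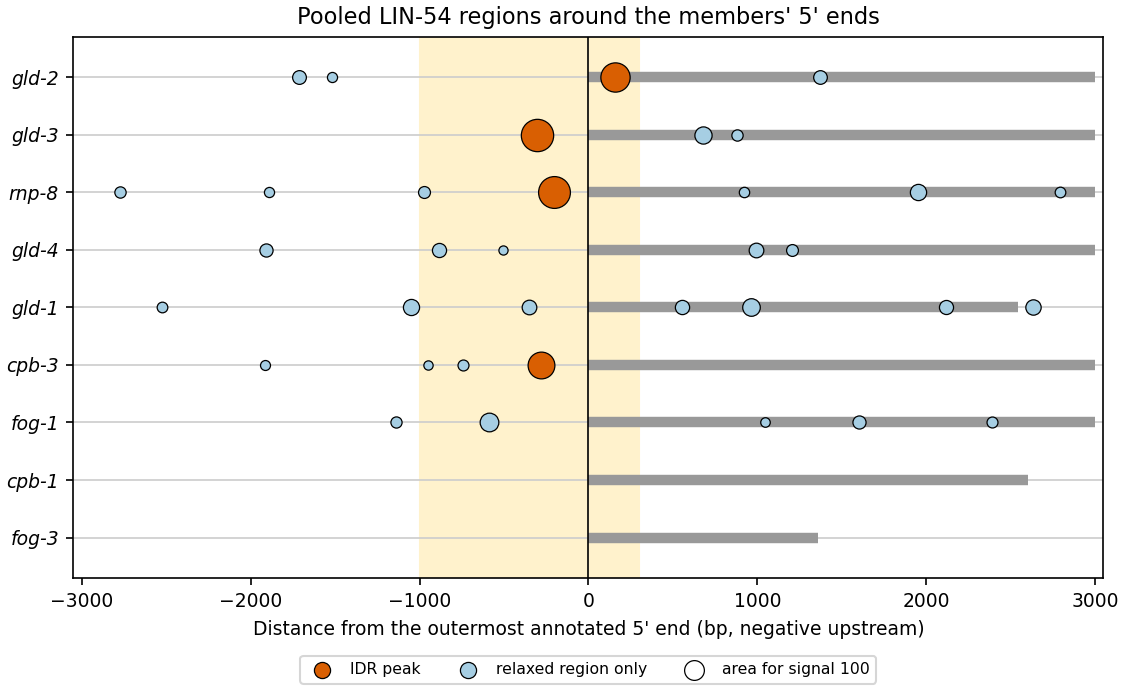
Pooled LIN-54 regions within 3000 bp of the outermost 5′ end of each member (horizontal axis in bp, negative upstream), with circle area proportional to signal, IDR peaks in orange and other regions in blue; grey bars are the gene, and the shaded band is the window of that 5′ end. The 4 IDR peaks lie between 305 bp upstream and 158 bp downstream, weak regions are scattered over the other genes, and cpb-1 and fog-3 have none in the plotted stretch.

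Where a member had a window region in both replicates, the summits of its strongest region lay close together. For the bound members the summit in each replicate was at most 33 bp from the pooled summit. In each replicate taken alone, the strongest 3449 regions, as many as there are IDR peaks, put a summit in the windows of the same 4 members and of no other. IDR peaks were chosen from these same replicates, so this is a description and no separate check. For the members with weaker regions, the summits were also within 33 bp of the pooled summit at gld-4, at fog-1 and, in replicate 2, at gld-1. Replicate 1 had no region in the gld-1 window. By strength, the percentile of gld-4 was 34.7 in replicate 1 and 35.2 in replicate 2, and that of fog-1 was 54.3 in replicate 1 and 61.8 in replicate 2.

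The bound members had signals close to those of other bound genes, while the members with any region had a higher median than other genes with one. The IDR peaks at the 4 bound members had a median signal of 239, against 222 at the 2855 other bound genes. The strongest pooled signal had a median of 184 over the 7 members with a region, against 67.4 over the 7584 other genes with one. In replicate 1 this median was 104 over 6 members, against 35.7, and in replicate 2 it was 81.5 over 7 members, against 35.2. These medians leave out the members without a region, so they do not describe all 9 genes, and 4 of the 7 members in the pooled median are the bound ones. Over all 9 members, with those without a region set to 0, the median of the strongest pooled signal was 89.1, against 0 over the 19964 other genes.

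**Figure D3:**
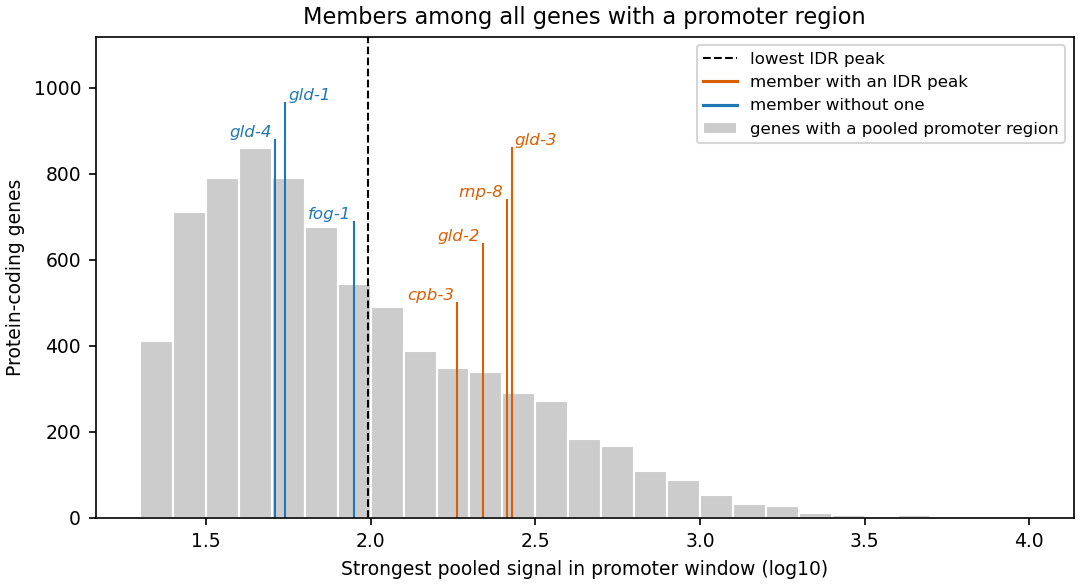
Histogram of the strongest pooled signal in the promoter window (log10 axis) over the 7591 protein-coding genes with a pooled region, with vertical lines at the 7 members that have one; line heights only separate the names. The bound members lie between 183.5 and 267.8, to the right of the lowest IDR signal, and fog-1 lies just left of it.

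Over all genes, IDR summits in promoter windows, 2281 in number, had a median position 178 bp upstream of the nearest 5′ end, with quartiles at 341 and 75 bp upstream. The summits at gld-3, rnp-8 and cpb-3 lay between these quartiles, and the gld-2 summit lay closer to its nearest 5′ end, an inner one, at 28 bp upstream. Of all promoter IDR peaks, 35.1% were in the windows of several genes, as was 1 of the 4 member peaks, that of gld-3. The base composition at the summits was mixed: over 101 bases, G and C made up 53.5% at gld-2, 39.6% at gld-3, 38.6% at rnp-8 and 33.7% at cpb-3, against a median of 45.5% at promoter IDR summits.

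The elements recognised by DREAM lay near 2 of the 4 bound members' summits. Within 50 bp of the summit a CHR match was present at 1 of the 4 bound members, cpb-3, against 37.7% of promoter IDR peaks. An E2F match was present at 1, gld-2, against 20.7%, and either element at 2, against 46.8%. With 4 peaks, 1 gene decides each of these counts. The gld-2 match, TTGGCGC on the strand opposite to the gene, was centred 5.0 bp from the summit. At cpb-3 the CHR matches within 100 bp were TTTGAA or TTCGAA centred at 72.5, 56.5, 49.5 and -37.5 bp from the summit, negative being away from the gene. At rnp-8 a TTCGAA was centred 54.5 bp from the summit, just beyond the 50 bp used, and the gld-3 matches, printed above, lay farther out.

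A CHR match was common upstream of bound and unbound members. In the 300 bases before the outermost 5′ end, all 9 members had one, against 70.6% of all protein-coding genes. An E2F match was present there at 1 member, gld-3, against 9.43% of all genes. Both fog-3 and cpb-1, which had no region, had CHR matches in this stretch. A match is a stretch of letters and shows no binding, and its presence did not separate bound from unbound members.

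Genes that work with or under these regulators had LIN-54 at many of their promoters, and in 3 of the 6 companion lists the share of bound genes was above that of the set itself. These lists were drawn up from textbook knowledge with earlier results of these data known and share some genes, so their counts are descriptions only. The CPEB list is made up of the members fog-1, cpb-1 and cpb-3 and of cpb-2. Counted once and without the members, the lists held 65 genes, of which 31 were bound (47.7%), beside 14.3% of all genes. A pooled region was present at 57, with a median signal of 114. One of the 1724 strongest IDR peaks lay at 21 of the 65, beside 4 of the 9 members and 8.90% of all genes. In the 3 lists with the higher shares, this count was 3 of 12 for deadenylases, 5 of 16 for stem cell and meiotic entry, and 6 of 13 for GLD-1 targets. The higher share thus did not hold in all 3 lists at this cut.

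**Figure D4:**
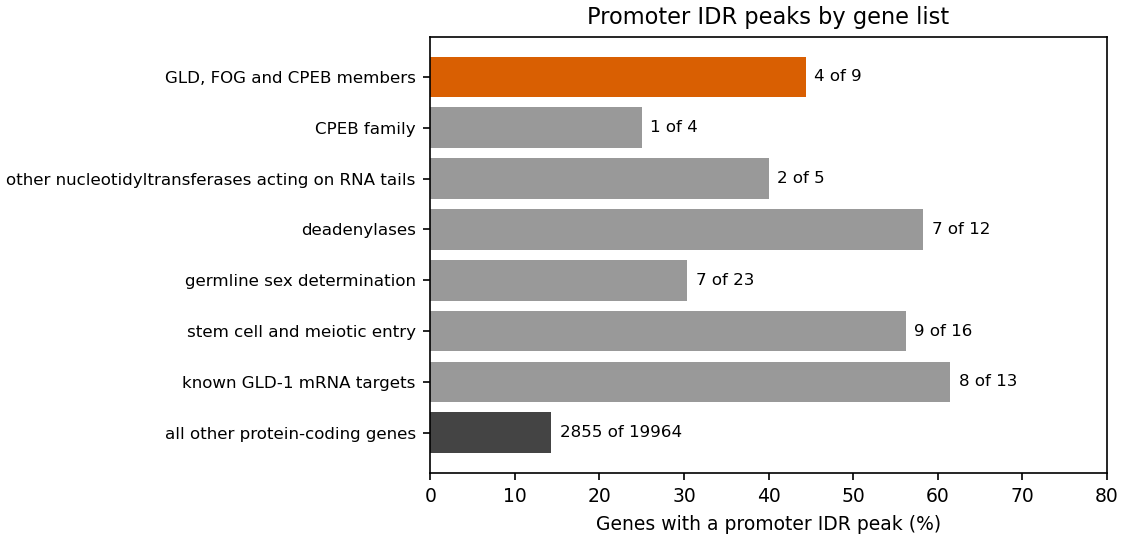
Percent of genes with a promoter IDR peak (horizontal axis from 0) among the 9 members, in each companion list and among all other protein-coding genes, with counts beside the bars. The members stand at 44.4%, the companion lists between 25% and 61.5%, and all other genes at 14.3%. The list at 25%, the CPEB family, holds the members fog-1, cpb-1 and cpb-3 beside cpb-2.

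Genes of enzymes and complexes that act on RNA tails were bound in part. Of 5 further nucleotidyltransferase genes, 2 were bound (40.0%), beside 14.3% of all genes. The other 3 were not bound: pap-1 (pooled signal 63.32), pup-2 (33.92) and pup-3, which had no pooled region in its window. At usip-1, related to the uridylyltransferases of U6 snRNA, the peak (V, 12184406 to 12184608) had signals of 152.8 in replicate 1, 194.9 in replicate 2 and 356.1 pooled, and lay also in the window of srd-4. At mut-2, which adds UG repeats to RNA interference targets, the peak (I, 6358527 to 6358643) had 94.75, 109.9 and 205.2 in the same order, and lay also in the window of K04F10.3. Deadenylases and their complexes shorten tails and so oppose GLD-2 and GLD-4. Of the 12 genes in this list, which includes subunits that are not themselves the enzyme, 7 were bound (58.3%), beside 14.3% of all genes. The strongest were the CCR4-NOT subunit genes ntl-11 (IV, 15471483 to 15471762, pooled signal 873.3), ntl-2 (II, 4376772 to 4377032, 481.5) and let-711 (III, 6946495 to 6946830, 190.1, shared with abu-13), of which let-711 encodes the scaffold. Signals at ntl-11 were 449.2 in replicate 1 and 428.5 in replicate 2, above those at any member. Other genes of this list stood near the limit, the lowest IDR signal of 98.2. By pooled signal, ccf-1 (98.65) and ntl-4 (99.28) were bound just above it, and panl-2 (96.9) was just below it.

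Of 23 other genes of germline sex determination, 7 were bound (30.4%), beside 14.3% of all genes and 44.4% of the members. The strongest were larp-1, a La-related RNA-binding protein gene (III, 5018158 to 5018468, pooled signal 1173, shared with wip-1), mog-4, a DEAH helicase gene (II, 14561673 to 14562039, 966.2), and daz-1, a DAZ family gene needed for oogenesis (II, 5455963 to 5456208, 624.7). Signals in replicates 1 and 2 were 618.0 and 561.1 at larp-1, 507.7 and 460.0 at mog-4, and 304.4 and 317.1 at daz-1. Each was stronger than any member in every list.

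Of 16 genes of the germline stem cell pool and of meiotic entry, 9 were bound (56.2%), beside 14.3% of all genes. The strongest were prom-1, an F-box protein gene (I, 9287121 to 9287405, pooled signal 738.1, shared with rpoa-2), and the Pumilio family genes puf-11 (IV, 6421266 to 6421500, 393.6) and puf-3 (IV, 13512273 to 13512502, 377.3, shared with afmd-2). Signals in replicates 1 and 2 were 346.4 and 388.2 at prom-1, 189.1 and 200.0 at puf-11, and 189.2 and 194.9 at puf-3.

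Of 13 genes whose mRNAs GLD-1 is known to bind and repress, 8 were bound (61.5%), beside 14.3% of all genes, while gld-1 itself was not. The strongest were egg-1, an oocyte surface protein gene (III, 5727827 to 5728145, pooled signal 801.2), spn-4, an embryonic RNA-binding protein gene (V, 6785164 to 6785406, 495.6, shared with spe-39), and rme-2, the yolk receptor gene (IV, 5469823 to 5470025, 366.9). Signals in replicates 1 and 2 were 402.8 and 398.4 at egg-1, 264.1 and 224.6 at spn-4, and 185.2 and 184.0 at rme-2. The difference in share between the lists was not tested.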

How the data were processed

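LIN-54 ChIP-seq regions from 2 biological replicates, 1 library each, were read from 4 deposited lists on build ce11, per the labels: 1 list per replicate, 1 of the pooled replicates (30000 regions each), and 3449 IDR peaks. Per the descriptions of the deposited files, the first 3 were input to the IDR procedure. Not given in the sources used here are the aligner, the peak caller, how a control entered the calls, the IDR threshold and the formula of the signal. The deposited signal value of a region is the authors' own and was used only to rank and describe regions within 1 list. The 3449 strongest pooled regions were the IDR peaks. Read depth is unknown, and with 2 replicates both values are printed in place of an SD. Whether the replicates were grown separately is given only by their label as biological replicates.

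Summits were computed from the region start and the deposited summit offset and written 1-based. Windows and positions used the 5′ ends of protein-coding transcripts of Ensembl release 115 on WBcel235, the same assembly as ce11. The build of the lists was taken from the labels. Every region end in the lists lay within the reference chromosomes, which cannot by itself identify the build. Sequence and 5′ completeness came from RefSeq WBcel235. A percentile is the place of a gene's strongest signal among genes with a region in the window of that list. No test was run. Window assignment was tested on simulated summits. Python 3.11.15, numpy 2.4.6, pandas 2.3.3 and matplotlib 3.10.9 were used.

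The members and companion lists were chosen with earlier results of these data known. A further gene of the set is not reported here and is left out of every count, share and median of the members, which would differ with it. Besides the members, the text names genes that share the window of a member's strongest region, and from each companion list the 3 with the strongest promoter IDR peak and every bound gene where 5 or fewer were bound. Neighbouring genes, cpb-2, the unbound nucleotidyltransferase genes and the genes of the deadenylase list near the IDR limit were named with their values known. Chosen in the same way were the shares for genes with a pooled region and by chromosome, the regions outside windows, the 5′ completeness and the extent of the printed sequences, which were widened so that they show the motif matches nearest to the gld-3 summit and the whole 300 bases of cpb-1. Of the listed companions, pup-1 and mog-6 matched no gene name of the annotation and were left out. Alternatives were narrower and wider windows, the 1724 strongest IDR peaks, any base of a peak in the window, each peak given to its nearest 5′ end, each replicate left out, and other motif distances and summits.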

Additional observations from a re-analysis of the deposited data

How the results depend on the processing

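The count of bound members was 4, and the same 4 genes, in all 7 alternatives: windows of 500 bp upstream to 100 bp downstream and of 2000 bp upstream to 500 bp downstream, the 1724 strongest IDR peaks, any base of the peak in the window, each peak given to the nearest 5′ end, and each replicate left out. The share of all genes bound ran between 8.9% and 17.4% in these, and was 14.3% without replicate 1 and 13.8% without replicate 2. Percentiles of the bound members stayed between 75 and 86.3, and those of the other members with a region between 30.2 and 61.8. At gld-1 the percentile was 59.8 without replicate 1, against 40.8 in the pooled list. At fog-1 the percentile was 30.2 with the narrower window, which leaves its strongest region outside, against 59.5, and gld-4 had no region in that window. Counts of bound members with a motif near the summit depended on the distance: CHR matches were at 0 within 25 bp and at 3 within 100 bp, against 1 within 50 bp, while the shares of promoter IDR peaks were 15.1% and 58.9%, against 37.7%. E2F matches were at 1 within 25 bp and at 2 within 100 bp, against shares of 11.6% and 25.5%. With the summit of replicate 2, CHR matches were at 2 bound members. No paired analysis was possible because the replicates form 1 group and no test was run. Read depth is unknown, so absence of a region at fog-3 and cpb-1 says only that none was called.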
